A study of Mus musculus with 6 samples.

Results

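Interferon-stimulated genes are the genes that cells switch on when interferons bind their receptors, and 42 of them were followed here in mouse CD4+ T cells. They were picked by symbol from the 26469 gene rows of the deposited count table. Of the 42, 11 encode the GTPases that IFN-γ induces most strongly, 30 are genes of the type I interferon response, and Irf1 was kept apart because both interferons act on it. RNA was sequenced from 6 cultures. In the 3 mutant samples, naive splenic CD4+ T cells carried the conditional genotype Sf3b1 K700E/fl together with Cd4Cre, and their genotype is annotated as Sf3b1 mutation. In the 3 control samples the cells carried Sf3b1 K700E/fl without Cd4Cre and are annotated as WT. Cd4Cre is a recombinase driven by the Cd4 gene, which acts in developing and mature T cells. Sf3b1 is a core splicing factor, and K700E is a recurrent change in some blood cancers. Every culture was held for 36 h with TGF-β at 5 ng/ml, hamster antibodies to CD3 and CD28, and antibodies to IL-4 and IFNγ, a mixture that drives naive cells towards regulatory T cells. The antibody to IFNγ was therefore present in mutant and control cultures alike.

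Type I interferons signal through the receptor of Ifnar1 and Ifnar2 and the kinases Tyk2 and Jak1 to a complex that contains Stat2 and Irf9 and binds the interferon-stimulated response element (ISRE). IFN-γ signals through Ifngr1 and Ifngr2 and the kinases Jak1 and Jak2 to the gamma-activated site (GAS), and through the Irf1 that is induced there. The responses overlap, since Irf1 also binds ISRE-like sequences and type I interferons raise many of the GTPases. In T cells these genes can mark past or present contact with interferon, and many limit viruses or intracellular parasites.

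Total counts per library ran from 34524433 to 36867313 in mutant and from 33633196 to 43928723 in control samples. Levels are given in CPM, counts scaled to the library total after TMM normalisation, which corrects for differences in library composition. Cd3e, which marks T cells, was at 363, 189 and 209 CPM in mutant 1, 2 and 3 and at 180, 264 and 205 CPM in control 1, 2 and 3, and Cd4 at 427 CPM or more in mutant and 391 CPM or more in control libraries. Sf3b1 (ENSMUSG00000025982) was at 649, 593 and 639 CPM in mutant 1, 2 and 3 and at 632, 712 and 638 CPM in control 1, 2 and 3. Counts per gene do not show the allele, so Sf3b1 does not check the genotype labels. Mutant 1 stood apart from the other libraries, with the highest CPM of all 6 in 30.6% and the lowest in 29.2% of the 18323 genes tested. The labels do not say that replicates are different animals, so the p-values rest on a spread between cultures that may be technical.

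No member passed the test between mutant and control cells adjusted over all genes. Among the mutant samples, most members were lowest in mutant 3, while the GTPases and most type I genes peaked in different libraries. The 11 GTPase genes were all highest in mutant 1. Of the 30 type I genes, 23 were highest in mutant 2 and 4 in mutant 1, and control 1, 2 and 3 were each highest for 1, namely Oasl1, Bst2 and Ifit2. Mutant 3 was highest for 0 members. Mutant 3 was the lowest mutant library for 40 of the 42 genes and the lowest of all 6 libraries for 27. Across all genes tested, mutant 1 was highest in 30.6%, mutant 2 in 14.4%, mutant 3 in 12.4% and control 1, 2 and 3 in 16.3%, 18.9% and 7.45%, and mutant 3 was the lowest mutant library in 35.1% and the lowest of all in 16.8%. These counts describe single libraries and carry no test.

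**Figure D1:**
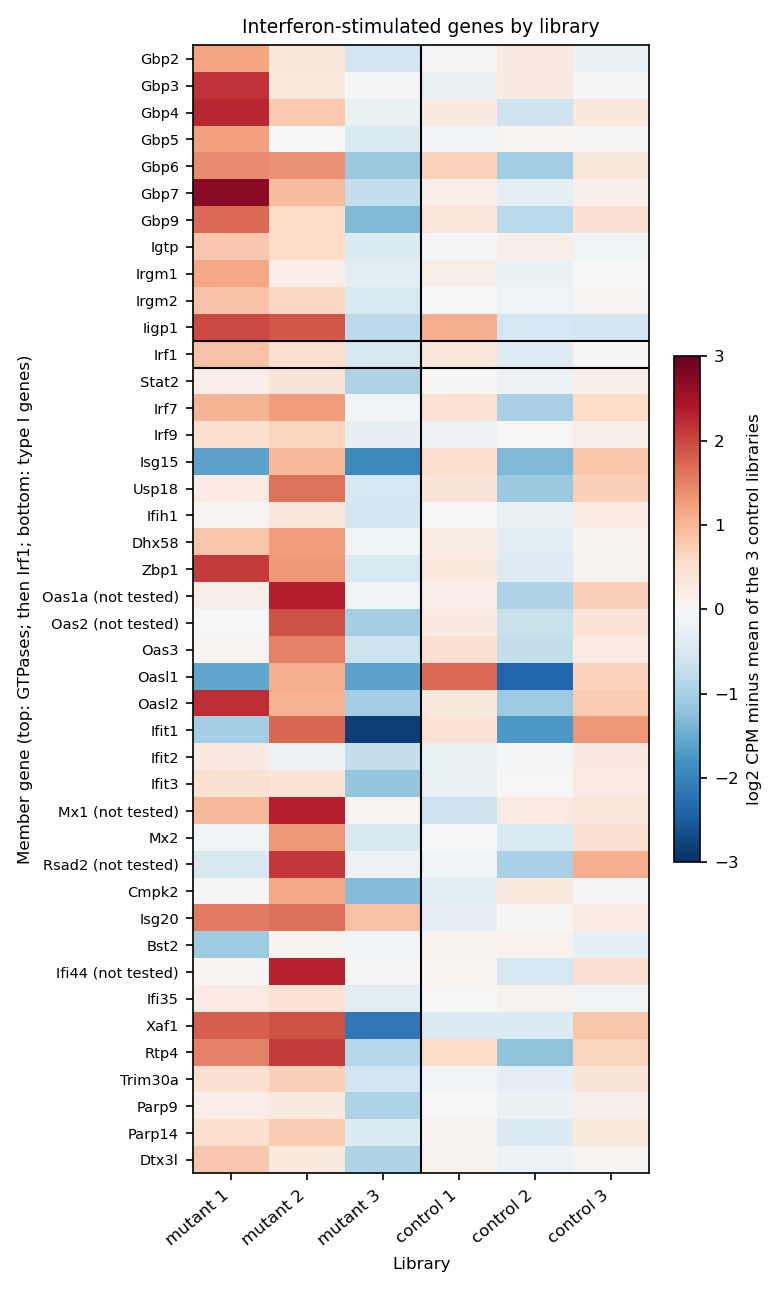
Level of each of the 42 members in each library, as log2 CPM (prior count 2) minus the mean of the 3 control libraries, with mutant libraries left of control libraries. Red is above and blue below the control mean, and the scale ends at 3 in each direction. GTPase rows are reddest in mutant 1, most type I rows in mutant 2, and mutant 3 is blue in most rows.

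The 3 mutant libraries were further apart for these genes than for others. Over the 37 members with enough counts to test, the median standard deviation of log2 CPM was 0.88 among mutant and 0.32 among control libraries, against 0.33 among mutant and 0.21 among control libraries over all genes tested. Low counts add to such a spread. Among genes with a control mean of 10 CPM or more, a limit set after the values were seen, the medians were 0.66 in mutant and 0.19 in control libraries for 14 members, against 0.24 in mutant and 0.14 in control libraries for 9297 genes.

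Mutant cells were compared with control cells by edgeR's quasi-likelihood test, with Benjamini-Hochberg adjustment across the 18323 genes and a threshold of 0.05. It called 0 of 37 members in either direction, as it called 0% of all genes. At an unadjusted p under 0.05, 1 of the 37 members was higher and 0 were lower, where the background was 4.14% higher and 3.48% lower. DESeq2 called 0 of the 34 members to which it gave an adjusted p, where its background was 0.326% higher and 0.307% lower. limma-voom called 0 members. Mean levels were higher in mutant cells for 29 and lower for 8 of the 37, against 52.9% of all genes higher and 47.1% lower. Only Isg20 among the 42 members had groups without overlap, against a background of 6.6% higher and 7.48% lower.

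**Figure D2:**
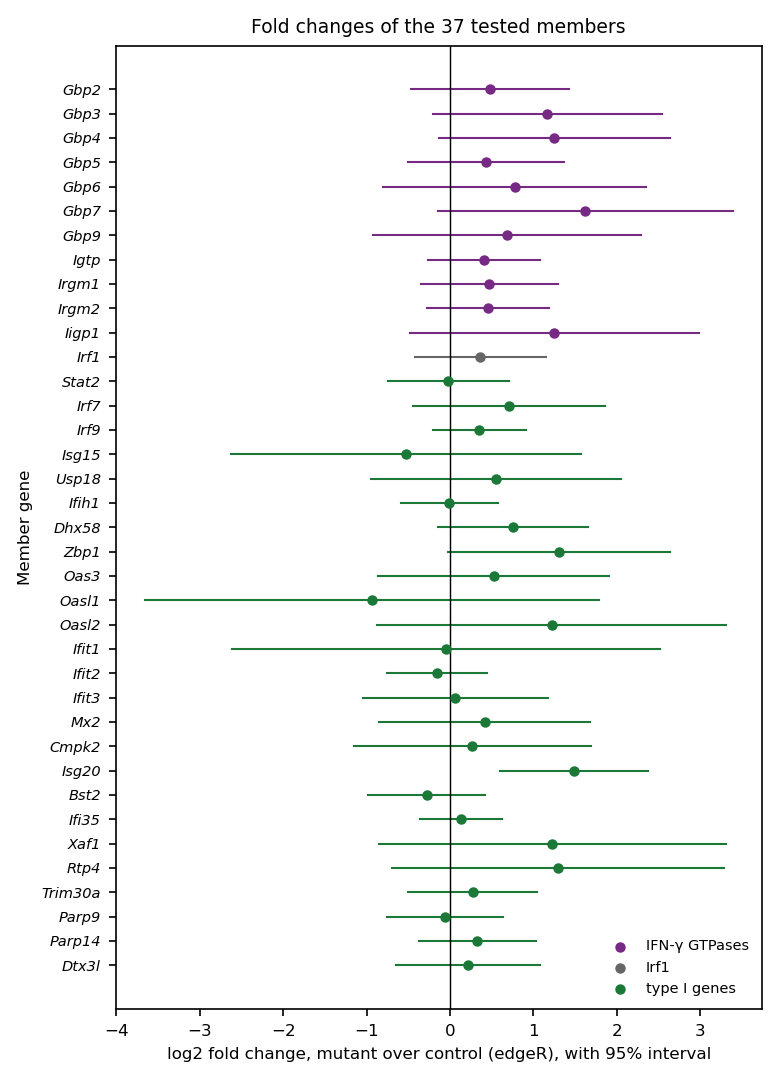
Log2 fold change of each tested member, mutant over control, from edgeR, with its 95% interval as a line. Points to the right of 0 are higher in mutant cells. Every GTPase interval includes 0, and the interval of Isg20, from 0.60 to 2.37, lies above it.

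Guanylate-binding proteins (Gbp genes) are large GTPases that assemble on the vacuoles of intracellular pathogens. Gbp7 (ENSMUSG00000040253) was at 8.96, 2.58 and 0.788 CPM in mutant 1, 2 and 3 and at 1.48, 1.06 and 1.46 CPM in control 1, 2 and 3. Mutant 1 and mutant 2 lay above and mutant 3 below all controls, so the groups overlapped. Its log2 fold change of 1.62 ± 0.76 (SE), with a 95% interval from -0.14 to 3.39, did not pass (edgeR adjusted p = 0.676). Without mutant 1 it was 0.35. Gbp4 (ENSMUSG00000079363) was at 21.8, 7.82 and 3.83 CPM in mutant 1, 2 and 3 and at 5.43, 2.92 and 5.70 CPM in control 1, 2 and 3. Mutant 1 again stood highest, while mutant 3 lay within the controls. The log2 fold change of Gbp4 was 1.25 ± 0.60 (SE; edgeR adjusted p = 0.683), and 0.33 without mutant 1.

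Gbp5 (ENSMUSG00000105504), which promotes inflammasome assembly, was the most abundant Gbp member in CPM, at 21.1, 8.92 and 6.60 CPM in mutant 1, 2 and 3 and 8.33, 9.46 and 9.25 CPM in control 1, 2 and 3. Here only mutant 1 exceeded the controls, whose SD was 0.598 CPM, and the log2 fold change of 0.44 ± 0.40 (SE; edgeR adjusted p = 0.798) was -0.20 without mutant 1. Gbp2, Gbp3, Gbp6 and Gbp9 had log2 fold changes of 0.48, 1.17, 0.78 and 0.69, and none passed edgeR's test. Gbp6 differed from the other Gbp genes in that mutant 2, at 7.39 CPM, came close to mutant 1, at 7.66 CPM. The Gbp genes are close paralogs whose reads a counter could split, so their single values are uncertain. Estimated counts were fractional in all 6 libraries for Gbp6, in 4 for Gbp4 and Gbp7, in 3 for Gbp9, in 1 for Gbp3 and in 0 for Gbp2 and Gbp5.

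Immunity-related GTPases of the Irgm group (Igtp, also called Irgm3, Irgm1 and Irgm2) protect the cell's own membranes, while Iigp1 acts on parasite vacuoles. Igtp (ENSMUSG00000078853) was at 154, 133 and 66.2 CPM in mutant 1, 2 and 3 and at 85.9, 99.9 and 80.7 CPM in control 1, 2 and 3. Both mutant 1 and mutant 2 lay above and mutant 3 lay below every control library. Irgm2 (ENSMUSG00000069874) had the same order, with 30.2, 25 and 11.8 CPM in mutant 1, 2 and 3 and 16.5, 15.4 and 16.9 CPM in control 1, 2 and 3. The log2 fold changes were 0.41 ± 0.29 (SE) for Igtp and 0.45 ± 0.31 for Irgm2 (edgeR adjusted p = 0.754 and 0.749). Without mutant 1 they were 0.18 and 0.19, and without mutant 3 they were 0.69 and 0.76. Iigp1 (ENSMUSG00000054072) was at 8.31, 7.62 and 1.17 CPM in mutant 1, 2 and 3 and at 4.41, 1.40 and 1.38 CPM in control 1, 2 and 3. Control 1 was the highest control for Iigp1, and without it the log2 fold change of 1.25 ± 0.75 (SE; edgeR adjusted p = 0.73) was 2.03. Irgm1 was at 59.0, 30.0 and 20.6 CPM in mutant 1, 2 and 3 and between 22.8 and 29.7 CPM in control libraries, with a log2 fold change of 0.47 ± 0.35 (SE).

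Irf1 (ENSMUSG00000018899), the transcription factor that IFN-γ induces at once, was highest in mutant 1. So were 11 of 11 GTPases and 4 of 30 type I genes, against 30.6% of all genes tested. Irf1 was at 49.9, 38.0 and 19.5 CPM in mutant 1, 2 and 3 and at 34.8, 20.8 and 27.9 CPM in control 1, 2 and 3. The log2 fold change was 0.36 ± 0.34 (SE; edgeR adjusted p = 0.799) and 0.06 without mutant 1.

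Promoters of the members were searched for the DNA elements of both pathways. RefSeq promoters of build GRCm38.p6, reaching from 250 bases before to 50 bases after the annotated start, matched 29 of the 42 members by symbol. No entry was matched for Usp18, Dhx58, Zbp1, Oas2, Mx1, Mx2, Rtp4, Parp9, Parp14, Gbp4, Gbp6, Gbp9 and Iigp1. The ISRE core was searched on both strands as GAAA, any 2 bases and GAAA again, and the GAS core as TTCNNNGAA, which reads the same on both strands. An ISRE core was present in 7 of 7 GTPase genes and 10 of 21 type I genes, against 3.99% of all 27025 genes with a promoter. A GAS core was present in 4 of 7 GTPase genes and 5 of 21 type I genes, against 9.55% of all genes. The 2 cores occurred together in 4 of 7 GTPase and 2 of 21 type I genes, against 0.614% of all genes, and they share bases in Bst2 alone. A gene with several annotated starts was counted once if any of its promoters matched, and a match is a run of letters, not evidence of binding.

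**Figure D3:**
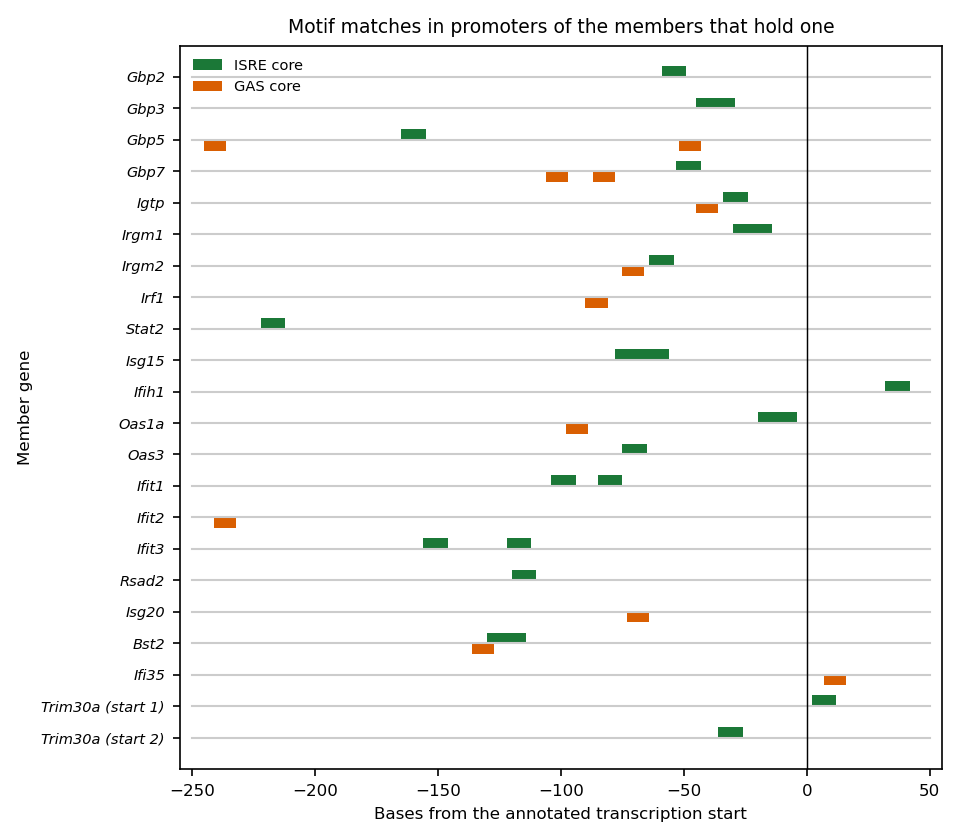
Matches of the ISRE core (green) and the GAS core (orange) in the promoters of members that hold at least 1, by distance in bases from the annotated start. GTPase genes are at the top, then Irf1, then type I genes. In Igtp and Irgm2 a GAS core lies just upstream of an ISRE core, and in Isg15 3 overlapping ISRE cores merge into 1 block.

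Sequences are shown for members that hold different sets of elements, read 5′ to 3′ along the gene, with the ISRE and GAS cores in capitals. Gbp7 and Igtp stand for GTPases with both, Irf1 for GAS alone, Isg15 and Ifit1 for ISRE alone, and Isg20 is the member whose groups did not overlap. In order, they lie at chr3:142530086-142530385 (plus strand), chr11:58199306-58199605 (plus strand), chr11:53769764-53770063 (plus strand), chr4:156200769-156201068 (minus strand), chr19:34640639-34640938 (plus strand) and chr7:78913174-78913473 (plus strand) in GRCm38.p6, a build other than that named for the counts. In Gbp7 both GAS cores, from -106 to -98 and from -87 to -79, precede the ISRE core at -53 to -44. In Igtp the GAS core at -45 to -37 ends 2 bases before the ISRE core at -34 to -25. Irf1 has 2 annotated promoters and Isg20 has 3, and for each gene only the promoter with a match is shown. Their other promoters hold neither core.
Gbp7: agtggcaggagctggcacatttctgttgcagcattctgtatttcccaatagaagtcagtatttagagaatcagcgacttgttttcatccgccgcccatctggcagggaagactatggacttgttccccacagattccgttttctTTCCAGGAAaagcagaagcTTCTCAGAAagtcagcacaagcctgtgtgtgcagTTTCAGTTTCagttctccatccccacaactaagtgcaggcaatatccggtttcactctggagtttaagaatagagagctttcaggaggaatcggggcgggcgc
Igtp: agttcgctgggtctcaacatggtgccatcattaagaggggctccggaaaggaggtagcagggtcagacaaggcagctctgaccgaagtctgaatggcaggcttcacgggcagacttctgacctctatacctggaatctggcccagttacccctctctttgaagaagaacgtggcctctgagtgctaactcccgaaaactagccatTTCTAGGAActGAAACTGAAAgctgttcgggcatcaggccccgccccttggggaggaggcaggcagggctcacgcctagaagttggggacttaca
Irf1: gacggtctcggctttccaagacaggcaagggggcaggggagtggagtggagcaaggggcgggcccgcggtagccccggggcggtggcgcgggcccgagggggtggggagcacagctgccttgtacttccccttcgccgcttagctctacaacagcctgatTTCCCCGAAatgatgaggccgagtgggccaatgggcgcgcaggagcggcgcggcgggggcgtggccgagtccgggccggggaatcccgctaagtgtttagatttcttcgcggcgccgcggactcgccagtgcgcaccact
Isg15: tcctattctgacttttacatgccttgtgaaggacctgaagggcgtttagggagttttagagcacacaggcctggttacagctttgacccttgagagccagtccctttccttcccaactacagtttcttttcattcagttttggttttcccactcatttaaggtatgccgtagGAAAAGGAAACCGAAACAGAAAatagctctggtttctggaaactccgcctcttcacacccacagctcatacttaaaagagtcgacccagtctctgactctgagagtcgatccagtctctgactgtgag
Ifit1: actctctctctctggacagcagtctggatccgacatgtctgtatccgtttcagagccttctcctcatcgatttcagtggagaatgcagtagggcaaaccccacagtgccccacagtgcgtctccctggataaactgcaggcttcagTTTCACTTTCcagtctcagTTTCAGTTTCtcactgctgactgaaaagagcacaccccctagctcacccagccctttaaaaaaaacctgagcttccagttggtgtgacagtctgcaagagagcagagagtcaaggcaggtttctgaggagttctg
Isg20: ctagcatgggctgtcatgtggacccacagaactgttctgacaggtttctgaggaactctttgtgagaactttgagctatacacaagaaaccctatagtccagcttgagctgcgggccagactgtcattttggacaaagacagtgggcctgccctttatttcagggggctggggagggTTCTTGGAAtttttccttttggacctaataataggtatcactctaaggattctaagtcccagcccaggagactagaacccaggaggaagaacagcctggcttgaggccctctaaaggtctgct

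Among the transcription factors of the type I response, Irf9 (ENSMUSG00000002325), the DNA-binding partner of Stat2, was at 43.6, 49.7 and 26.2 CPM in mutant 1, 2 and 3 and at 28, 30.8 and 35.0 CPM in control 1, 2 and 3. Mutant 1 and mutant 2 lay above and mutant 3 below all controls, and the log2 fold change of 0.35 ± 0.24 (SE) did not pass (edgeR adjusted p = 0.746). Irf7 (ENSMUSG00000025498), which amplifies type I interferon production, was at 4.89, 5.72 and 2.23 CPM in mutant 1, 2 and 3 and at 3.22, 1.18 and 3.47 CPM in control 1, 2 and 3. Mutant 3 lay below control 1 and 3, so the groups overlapped, with a log2 fold change of 0.71 ± 0.50 (SE; edgeR adjusted p = 0.754). Stat2 averaged 30.5 ± 12.7 CPM in mutant and 30.9 ± 3.63 CPM in control cells (SD, n = 3 each), nearly the same mean with a wider spread in mutant cells.

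Isg15 (ENSMUSG00000035692), a ubiquitin-like protein, and Usp18, the enzyme that removes it and restrains the type I receptor, form a feedback pair. Isg15 was low, at 0.254, 1.78 and 0.190 CPM in mutant 1, 2 and 3 and at 1.28, 0.319 and 1.62 CPM in control 1, 2 and 3. These values correspond to 9, 63 and 7 counts in mutant and 44, 13 and 59 counts in control libraries, and each group held both low and high libraries. Its log2 fold change was -0.53 ± 0.91 (SE; edgeR adjusted p = 0.887), and -2.23 without mutant 2. Usp18 (ENSMUSG00000030107) was at 2.35, 6.15 and 1.36 CPM in mutant 1, 2 and 3 and at 2.58, 0.884 and 3.28 CPM in control 1, 2 and 3. For both genes mutant 2 was the highest library and control 2 the lowest control. The Usp18 log2 fold change was 0.55 ± 0.65 (SE; edgeR adjusted p = 0.835).

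Of the nucleic acid sensors, Zbp1 (ENSMUSG00000027514), which recognises Z-form RNA and DNA and can start cell death, was at 10.9, 6.29 and 1.82 CPM in mutant 1, 2 and 3 and at 3.08, 1.92 and 2.7 CPM in control 1, 2 and 3. Unlike most type I genes, Zbp1 was highest in mutant 1, as the GTPases were. Its log2 fold change of 1.30 ± 0.58 (SE; edgeR adjusted p = 0.659) had a 95% interval from -0.03 to 2.64 and was 0.67 without mutant 1. Dhx58 (ENSMUSG00000017830), which encodes LGP2, was at 4.63, 6.2 and 2.42 CPM in mutant 1, 2 and 3 and at 3.02, 2.04 and 2.81 CPM in control 1, 2 and 3. Mutant 3 fell among the controls, and the log2 fold change was 0.75 ± 0.39 (SE; edgeR adjusted p = 0.705). Ifih1 (ENSMUSG00000026896), the MDA5 sensor of long double-stranded RNA, was at 19.4, 23.1 and 12.4 CPM in mutant 1, 2 and 3 and at 18, 15.6 and 21.6 CPM in control 1, 2 and 3. Its log2 fold change of -0.01 had a 95% interval from -0.59 to 0.57.

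Those oligoadenylate synthetases that are active enzymes make the messenger that switches on RNase L. Oas3 (ENSMUSG00000032661) was at 1.72, 4.79 and 1.03 CPM in mutant 1, 2 and 3 and at 2.29, 0.982 and 1.98 CPM in control 1, 2 and 3. Mutant 2 was above all controls while the other mutant libraries were among them (log2 fold change 0.52 ± 0.60 SE; edgeR adjusted p = 0.832). Oasl2 (ENSMUSG00000029561), a member of the family that is highest in mutant 1, was at 1.22, 0.510 and 0.0815 CPM in mutant 1, 2 and 3 and at 0.290, 0.0737 and 0.413 CPM in control 1, 2 and 3, with a log2 fold change of 1.22 ± 0.90 (SE; edgeR adjusted p = 0.76). Oasl1 was the only type I gene highest in control 1, with 3, 29 and 3 counts in mutant 1, 2 and 3 and 44, 1 and 22 counts in control 1, 2 and 3. Oas1a and Oas2 had too few counts to be tested, at 4, 25 and 3 and at 4, 20 and 1 counts in mutant 1, 2 and 3, and at 4, 1 and 7 and at 5, 2 and 6 counts in control 1, 2 and 3.

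Ifit proteins restrain the translation of viral RNA, and Ifit1 binds RNA whose 5′ cap lacks host marks. Ifit2 (ENSMUSG00000045932) was at 36.9, 27.8 and 18.8 CPM in mutant 1, 2 and 3 and at 26.3, 29.6 and 37.2 CPM in control 1, 2 and 3. The ranges overlapped and control 3 was highest, with a log2 fold change of -0.16 ± 0.26 (SE; edgeR adjusted p = 0.881). Ifit3 (ENSMUSG00000074896) was at 1.53, 1.47 and 0.462 CPM in mutant 1, 2 and 3 and at 0.929, 1.08 and 1.29 CPM in control 1, 2 and 3, with a log2 fold change of 0.06 ± 0.48 (SE; edgeR adjusted p = 0.974). Ifit1 had the widest ratio between its highest and lowest library of the 3, at 1.07, 7.56 and 0.272 CPM in mutant 1, 2 and 3 and 3.05, 0.639 and 5.56 CPM in control 1, 2 and 3. Its order of libraries matched that of Isg15 in mutant cells, with mutant 2 highest and mutant 3 lowest, and also in control cells.

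Isg20 (ENSMUSG00000039236), an exonuclease that degrades RNA, was the member with the smallest p. It was at 1.38, 1.47 and 0.842 CPM in mutant 1, 2 and 3 and at 0.348, 0.442 and 0.523 CPM in control 1, 2 and 3, or 49, 52 and 31 counts in mutant and 12, 18 and 19 counts in control libraries. Every mutant library lay above every control library. The log2 fold change of 1.48 ± 0.38 (SE) had a 95% interval from 0.60 to 2.37 and an unadjusted edgeR p of 0.00493, and it did not pass over all genes (adjusted p = 0.598 in edgeR and 0.167 in DESeq2). Leaving out any of the 6 libraries kept it between 1.34 and 1.69. Its level was low throughout, and mutant 3 was again the lowest mutant library.

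None of the other tested antiviral effectors passed edgeR's test, and mutant 2 was the highest library for each of them except Bst2. Trim30a (ENSMUSG00000030921), a mouse ubiquitin ligase family member that restrains inflammatory signalling, was the most abundant of them in CPM, at 55.5, 66.9 and 27.0 CPM in mutant 1, 2 and 3 and 38.1, 32.9 and 53.0 CPM in control 1, 2 and 3. Mutant 3 was below and the other mutant libraries above all controls (log2 fold change 0.27 ± 0.33 SE; edgeR adjusted p = 0.843). Rtp4 (ENSMUSG00000033355) was at 0.791, 1.22 and 0.109 CPM in mutant 1, 2 and 3 and at 0.377, 0.0737 and 0.413 CPM in control 1, 2 and 3, with a log2 fold change of 1.30 ± 0.86 (SE; edgeR adjusted p = 0.742). Bst2, the tetherin that holds budding virus at the cell surface, went another way and was lowest in mutant 1, at 7.09 CPM, against 16.1 and 14.1 CPM in mutant 2 and 3 and 16.3, 16.5 and 12.6 CPM in control 1, 2 and 3. The log2 fold changes of Ifi35, Xaf1, Mx2 and Cmpk2 were 0.14, 1.23, 0.42 and 0.27, and none passed edgeR's test.

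Mx1, Rsad2 and Ifi44, an antiviral GTPase, the enzyme viperin and a gene induced by both interferon types, were near the limit of detection and not tested. Mx1 had 7, 21 and 3 counts in mutant 1, 2 and 3 and 1, 4 and 4 counts in control 1, 2 and 3. Rsad2 had 2, 22 and 3 counts in mutant and 3, 1 and 10 counts in control libraries. Ifi44 had 1, 12 and 1 counts in mutant and 1, 0 and 2 counts in control libraries, and the 0 in control 2 allows up to 0.0737 CPM (3 counts, counting error only). All 5 untested members had their most counts in mutant 2.

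Parp14 (ENSMUSG00000034422), an ADP-ribosyltransferase, was at 117, 141 and 63.2 CPM in mutant 1, 2 and 3 and at 90.6, 63.3 and 102 CPM in control 1, 2 and 3, with a log2 fold change of 0.33 ± 0.30 (SE; edgeR adjusted p = 0.798). Dtx3l (ENSMUSG00000049502), the ubiquitin ligase that works with Parp9, was at 138, 96.6 and 42.0 CPM in mutant 1, 2 and 3 and at 84.7, 70.5 and 83.5 CPM in control 1, 2 and 3. Mutant 1 was highest for Dtx3l and mutant 2 for Parp14 and Parp9. The log2 fold changes of Dtx3l and Parp9 were 0.22 ± 0.37 and -0.06 ± 0.30 (SE; edgeR adjusted p = 0.887 and 0.958). Parp9, Dtx3l, Igtp, Irf1 and Trim30a had fractional estimates in all 6 libraries, and whether reads were shared with another gene was not tested.

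**Figure D4:**
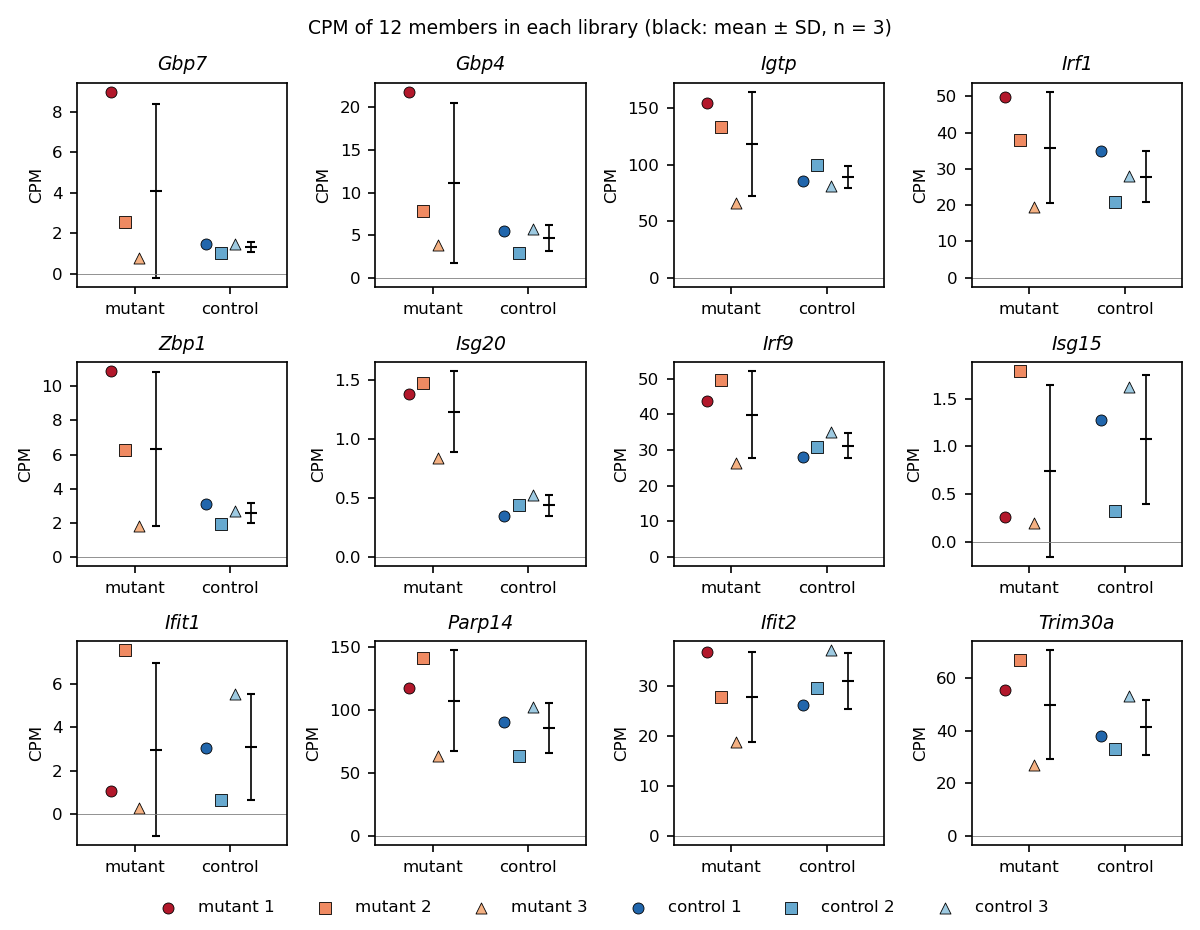
CPM of 12 members in each library, mutant left of control, with the mean and SD (n = 3) in black. Mutant 1 is highest for Gbp7, Gbp4, Igtp, Irf1 and Zbp1 and mutant 2 for Irf9, Isg15, Ifit1, Parp14 and Trim30a, while the Isg20 groups do not overlap.

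The IFN-γ GTPases were then set against the type I genes. The median log2 fold change, mutant over control, was 0.69 over the 11 GTPases and 0.27 over the 25 tested type I genes, beside 0.02 over all genes tested. All 11 GTPases and 17 of the 25 type I genes had a higher mean in mutant cells, and edgeR called 0 in each class. The GTPase median was 0.18 without mutant 1 and 1.15 without mutant 3, and it was 0.34 by limma-voom. The type I median was -0.13 without mutant 2 and 0.57 without mutant 3, and 0.16 without control 2 and 0.49 without control 3. The GTPase median therefore exceeded the type I median by 0.42 on all 6 libraries, by 0.77 without mutant 2, and by -0.10, that is not at all, without mutant 1. The 5 type I genes that could not be tested on all 6 libraries are outside these medians, except that Rsad2 passed the count filter when mutant 1 or control 1 was left out and enters those. In a fit with no count filter, which holds all 42 members, the medians were 0.67 for the GTPases and 0.37 for the type I genes.

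Within libraries, the mean log2 CPM of a class relative to its control mean showed where this difference lay. The 11 GTPases were at 1.59, 0.69 and -0.58 in mutant 1, 2 and 3 and at 0.21, -0.25 and 0.04 in control 1, 2 and 3. The 25 type I genes were at 0.39, 0.96 and -0.80 in mutant 1, 2 and 3 and at 0.16, -0.52 and 0.37 in control 1, 2 and 3. Both classes were low in mutant 3 and control 2 relative to their group. The GTPase level minus the type I level was 1.21 in mutant 1, -0.27 in mutant 2 and 0.21 in mutant 3, against 0.05, 0.27 and -0.33 in control 1, 2 and 3, so mutant 1 lay above the control range and the other mutant libraries within it. With the 5 untested type I genes included, it was 1.25, -0.48 and 0.12 in mutant 1, 2 and 3 and 0.09, 0.28 and -0.37 in control 1, 2 and 3, and mutant 2 then lay below the control range. Gene by gene, mutant 1 exceeded mutant 2 for 11 of 11 GTPases and 5 of 30 type I genes, against 47.9% of all genes tested. Each of these libraries is a single sample, so the contrast between mutant 1 and mutant 2 has no replicate check. The distance between these libraries was wider for the Gbp genes, at 1.81 in mutant 1 and 0.61 in mutant 2, where the immunity-related GTPases were at 1.21 and 0.82.

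**Figure D5:**
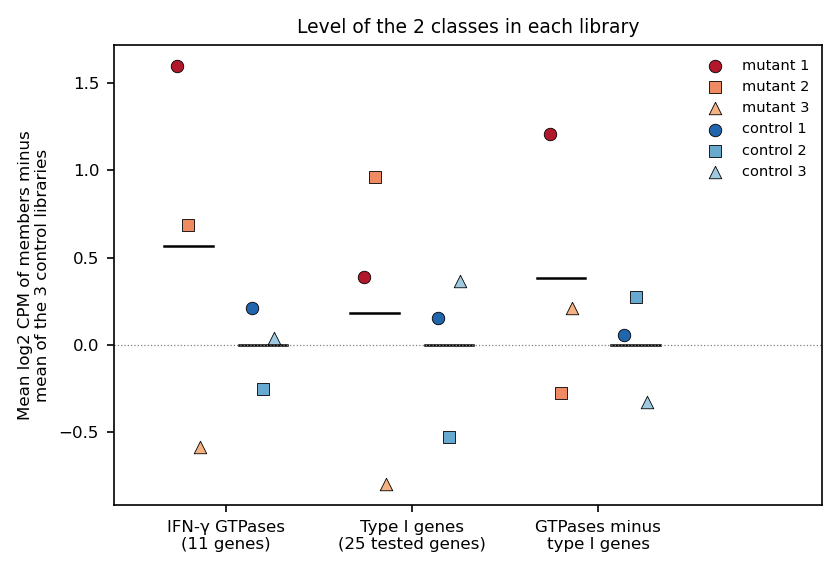
Mean log2 CPM of the members of each class in each library minus the mean of the 3 control libraries, and the difference between the classes, with mutant libraries left of control libraries and bars at the group means. Mutant 1 is highest for the GTPases at 1.59, mutant 2 for the type I genes at 0.96, and mutant 3 is lowest for both.

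Other genes of the pathway gave 0 calls among 73 tested, higher or lower, by edgeR, and 0 by DESeq2. At an unadjusted p under 0.05, 5 were higher and 0 lower, against 4.14% of all genes higher and 3.48% lower. Of the 83 with a row, 7 were higher and 1 lower without overlap between the groups, against 6.6% and 7.48%. Of 16 interferon ligand genes looked for, 4 had a row in the table and only Ifng was tested. Ifng (ENSMUSG00000055170) had 10, 106 and 25 counts in mutant 1, 2 and 3 and 46, 8 and 1 counts in control 1, 2 and 3, or 0.283, 3.0 and 0.679 CPM in mutant and 1.34, 0.196 and 0.0275 CPM in control libraries. Its transcript was highest in mutant 2, while the GTPases were highest in mutant 1, each a single library. The log2 fold change of Ifng, 1.36 ± 1.17 (SE), did not pass (edgeR adjusted p = 0.789). Any relation between the Ifng transcript and the level of the GTPases was not tested. Ifnk and Ifnz stayed at 24 counts or fewer, and Ifna13 had 2 counts in mutant 3 and 2 in control 3.

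Receptors and signalling were covered by 17 genes, 12 with a higher and 5 with a lower mutant mean and a median log2 fold change of 0.21. The type I receptor gene Ifnar2 was at 58.9, 38.4 and 33.3 CPM in mutant 1, 2 and 3 and at 29.8, 34.8 and 30.7 CPM in control 1, 2 and 3 (log2 fold change 0.45 ± 0.22 SE; edgeR adjusted p = 0.693). Its partner Ifnar1 was at 158, 136 and 85.9 CPM in mutant 1, 2 and 3 and at 92.6, 93.8 and 107 CPM in control 1, 2 and 3, in the order of the GTPases. The IFN-γ receptor genes were at 86.3, 53.4 and 34.7 CPM for Ifngr1 and 60.4, 61.0 and 51.3 CPM for Ifngr2 in mutant 1, 2 and 3, and at 48.6, 49.0 and 53.5 CPM and 68.1, 59.6 and 72.0 CPM in control 1, 2 and 3. Ifngr1 and Ifnar2 thus shared the order of the GTPases too, and Ifngr2 varied little. Of the 17 genes of this list, 11 were highest in mutant 1, against 30.6% of all genes tested.

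Jak2 (ENSMUSG00000024789) was the one gene of this list whose p was under 0.05 unadjusted, at 289, 285 and 287 CPM in mutant 1, 2 and 3 and 225, 242 and 238 CPM in control 1, 2 and 3, without overlap. Its log2 fold change was 0.29 ± 0.12 (SE), with an unadjusted edgeR p of 0.043 and an adjusted p of 0.645. Pias1, higher, and Ptpn2, lower, inhibitors of the pathway, also had groups without overlap (edgeR adjusted p = 0.725 and 0.762). Jak1 averaged 498 ± 150 CPM in mutant and 390 ± 34.6 CPM in control cells, and Tyk2 45.5 ± 4.64 CPM in mutant and 43.5 ± 0.313 CPM in control cells (SD, n = 3 each). Socs1, which shuts off the receptors, was at 21.2, 45.7 and 22.2 CPM in mutant 1, 2 and 3 and at 22.8, 31.4 and 21.2 CPM in control 1, 2 and 3, highest in mutant 2.

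Among 17 tested genes of nucleic acid sensing, Ikbke (ENSMUSG00000042349), a kinase that activates interferon regulatory factors, had the smallest p. It was at 196, 159 and 138 CPM in mutant 1, 2 and 3 and at 93.1, 110 and 109 CPM in control 1, 2 and 3, without overlap (log2 fold change 0.66 ± 0.17 SE; edgeR adjusted p = 0.598). Ddx58, the RIG-I sensor, was at 35.6, 27.6 and 15.1 CPM in mutant 1, 2 and 3 and at 15.5, 14.2 and 21.6 CPM in control 1, 2 and 3 (edgeR adjusted p = 0.708). Among 38 tested further interferon-stimulated genes, 36 had a higher mean in mutant cells, with a median log2 fold change of 0.46 and 0 calls by edgeR. Parp10, an ADP-ribosyltransferase, was at 21.0, 20.2 and 14.5 CPM in mutant 1, 2 and 3 and at 10.2, 13.3 and 10.6 CPM in control 1, 2 and 3, without overlap (log2 fold change 0.70 ± 0.21 SE; edgeR adjusted p = 0.612). Ifitm3, which blocks the entry of viruses, was low, at 1.98, 1.93 and 0.435 CPM in mutant 1, 2 and 3 and at 0.232, 0.368 and 0.0275 CPM in control 1, 2 and 3 (log2 fold change 2.75 ± 0.82 SE; edgeR adjusted p = 0.612).

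Cell type markers moved with single libraries. The 8 CD4 T cell markers summed to 2374, 1769 and 1797 CPM in mutant 1, 2 and 3 and to between 1430 and 2049 CPM in control libraries, highest in mutant 1, where the GTPases were highest. Cd28 was at 445 CPM in mutant 1, against 245 and 244 CPM in mutant 2 and 3 and 174, 254 and 217 CPM in control 1, 2 and 3. Cd3d, Cd3e, Cd3g and Trac were also highest in mutant 1. The other markers of this list were not, with Cd4 highest in control 2, at 604 CPM, and Cd5 and Zbtb7b in mutant 3. Zbtb7b was lowest in mutant 1, at 59.4 CPM. The 8 B cell markers summed to between 129 and 231 CPM in mutant and between 137 and 161 CPM in control libraries, most of it Ighm. Each of these 8 markers, and not only Ighm, was highest in mutant 2. Ms4a1 was at 7.68 CPM in mutant 2, the library in which most type I genes were highest, and at 0 and 0.761 CPM in mutant 1 and 3, against 0.319, 0.0491 and 0.0275 CPM in control 1, 2 and 3. The 8 myeloid markers summed to between 2.96 and 6.92 CPM in mutant and between 2.65 and 4.50 CPM in control libraries. Itgam, at 2.57 CPM, and Fcgr3, at 1.22 CPM, were highest in mutant 1, and the others were not. Lyz2, Csf1r and Mpeg1 were highest in control 1, Cd68 in control 3, Adgre1 in mutant 3 and Cd14 in mutant 2. The CD8 genes summed to between 6.56 and 17.3 CPM in mutant and between 5.81 and 40.4 CPM in control libraries, with Cd8a at 24.3 CPM in control 1, where Oasl1 was highest. The 4 dendritic cell markers with a row summed to between 6.44 and 22.4 CPM in mutant and between 9.80 and 12.8 CPM in control libraries, nearly all of it Zbtb46. The 5 NK markers with a row summed to between 1.52 and 6.46 CPM in mutant and between 1.5 and 3.54 CPM in control libraries, with Ncr1 at 0 in mutant 1, mutant 3 and control 3. The 5 erythroid markers summed to at most 1.59 CPM in mutant and 1.06 CPM in control libraries. The B cell, dendritic and NK sums were all highest in mutant 2. Nearly all of the NK sum in mutant 2 was Eomes, at 5.95 CPM. The other NK markers were highest elsewhere, Klrb1c and Klri2 in mutant 1, at 0.763 and 0.650 CPM, and Ncr1 and Klre1 in control 1. Ms4a1, Ncr1, Klre1, Hbb-bs, Hba-a1 and Hba-a2 were each at 0 in at least 1 library. In bulk RNA, fewer cells of a type and less RNA per cell cannot be told apart, and the part of these markers in the levels of the interferon-stimulated genes was not tested.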

How the data were processed

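RNA was measured in 3 mutant and 3 control samples. Per the labels' protocols, total RNA was depleted of ribosomal RNA and made into libraries (KAPA RNA HyperPrep with RiboErase). Per the submitters' processing notes, GRCm39, mm39, STAR 2.7.8a and Partek were used; their roles, the annotation and whether strand was used were not given in the sources used here, and overlapping and antisense genes cannot be told apart. The deposited values are estimated counts per gene, not normalized by the authors, and 57.8% are whole. They were rounded to whole numbers.

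In R 4.3.3, filterByExpr (minimum count 10) kept 18323 genes, including 37 of the 42 members. These were scaled by TMM and compared, mutant minus control, in edgeR 4.0.16 with robust dispersions and no covariates. Standard errors were taken as log2 fold change over the root of the F statistic, and intervals cover 95%. Log2 CPM used a prior count of 2. Alternatives were DESeq2 1.42.0, limma-voom (limma 3.58.1), other scalings and filters, a replicate block, leaving out each library, and an adjusted p of 0.1. The fits were checked on simulated data.

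The members, lists and classes were chosen with earlier results of these data known. Values per library are given for members without overlap and, in each role group, for the 2 members with the smallest p and the most abundant in CPM, and likewise for 2 genes of each other pathway list and for the ligand, receptors and kinases. Stat2, Irf1, Ifit1, Irgm1, Oasl1, Bst2, Parp9 and the untested members were added after their values were seen.

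Some markers and pathway genes are not reported here.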

Additional observations from a re-analysis of the deposited data

How the results depend on the processing

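Under each of the 7 settings that kept all 6 libraries, each of the 6 that left out 1 library, and a threshold of 0.1, 0 members passed. Over all genes, 0 passed except in DESeq2, which called 99. The replicate numbers were checked for a pairing of the samples. Same-numbered deviations from the group means correlated at -0.048, -0.067 and -0.028 across genes, and no sample correlated best with its own number. All such correlations were small, from -0.067 to 0.073, so they cannot decide whether samples were paired. With the replicate block edgeR called 0 genes and 0 members. The median log2 fold change of the GTPases was then 0.42, against 0.69 without the block. Of 37 tested members, 19 kept their direction in every fit in which they were tested. The cause of the other changes of sign was not tested. Near 0, Stat2 was 0.0079 and Ifih1 0.018 under upper quartile scaling and 0.012 and 0.022 with the filter of 1 CPM in 3 samples. Ifit3 was -0.11 and Cmpk2 -0.080 by limma-voom, and Ifit3 was -0.059 with the replicate block. Leaving out single libraries, log2 fold changes ran from -0.24 to 0.28 (Stat2), -0.26 to 0.93 (Usp18), -0.19 to 0.20 (Ifih1), -0.32 to 0.89 (Oas3), -2.85 to 0.075 (Oasl1), -2.17 to 0.70 (Ifit1), -0.40 to 0.056 (Ifit2) and -0.18 to 0.44 (Ifit3). They ran from -0.34 to 0.73 (Mx2), -0.54 to 0.70 (Cmpk2), -0.49 to 0.011 (Bst2), -0.0056 to 0.32 (Ifi35), -0.24 to 0.23 (Parp9), -0.19 to 0.56 (Dtx3l), -0.046 to 0.81 (Gbp2), -0.20 to 0.73 (Gbp5), -0.19 to 1.15 (Gbp9) and -0.047 to 0.75 (Irgm1). Members with few counts, such as Isg15 at 7 to 63 counts per library, carry more counting error.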

Other observations

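Among the further interferon-stimulated genes, 8 encode GTPases of the same families as the members; this split was made after their values were seen and carries no test. Of these 8, 7 were highest in mutant 1, and in all 8 mutant 1 lay above every control library. Tgtp1, an immunity-related GTPase, was at 79.8, 29.9 and 14.9 CPM in mutant 1, 2 and 3 and at 21.9, 15.8 and 18.4 CPM in control 1, 2 and 3, and its near-identical neighbour Tgtp2 at 56.0, 21.7 and 7.72 CPM in mutant and 16.3, 11.4 and 13.5 CPM in control libraries. Ifi47 was at 231, 102 and 103 CPM in mutant 1, 2 and 3 and at 106, 134 and 114 CPM in control 1, 2 and 3. Gbp10, highest in mutant 2 with 16 counts, was the exception. Of the other 36 genes of that list, 18 were highest in mutant 1 and 14 in mutant 2, against 30.6% and 14.4% of all genes tested. Mutant 3 was the lowest mutant library for 29 of the 36, against 35.1% of all genes tested.

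The next 3 genes were chosen after their values were seen, and none passed the test. Of the p200 family of nucleic acid binding proteins, Ifi203 was at 154, 104 and 49.9 CPM in mutant 1, 2 and 3 and at 25.2, 64.7 and 63.6 CPM in control 1, 2 and 3, and Ifi209 at 7.72, 5.55 and 0.788 CPM in mutant and 1.48, 0.737 and 1.90 CPM in control libraries (edgeR adjusted p = 0.673 and 0.645). Samhd1, which degrades deoxynucleotides, was at 546, 220 and 128 CPM in mutant 1, 2 and 3 and at 143, 210 and 166 CPM in control 1, 2 and 3, and mutant 1 was the highest library by more than the range of the other 5.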
